A study of Mus musculus with 24 samples.

Results

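Tigit, Cd226, Cd96 and Crtam encode 4 receptors of natural killer (NK) cells and T cells whose ligands are nectins and nectin-like proteins. They were found by gene name in a table of 45237 genes, and all 4 were among the 17097 genes (37.8%) with enough counts to be tested. The counts come from RNA-seq of NK cells sorted from the spleens of wild-type C57BL/6J mice, females of 7 to 9 weeks unless the study's methods specified otherwise. Mice received RMA cells, a mouse T cell lymphoma line that hardly stimulates NK cells, or RMA-KR cells, by intravenous injection, and their NK cells were followed while the tumors grew. RMA-KR is a derivative of RMA in which B2m was knocked out, which removes MHC-I from the surface. A lentivirus added ZsGreen and the NKG2D ligand Rae1-β to it, and RMA-KR was cloned by limiting dilution. The RMA cells of the study expressed ZsGreen as well. The sort kept live cells with NKp46 or NK1.1 staining and without CD3, CD5, TCRαβ or TCRγδ, among other markers.

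The 24 libraries fall into 7 groups. Control NK cells came from untreated mice (n = 4). RMA early (n = 3) and RMA-KR early (n = 3) were both taken at day 2 after injection. RMA intermediate was taken at day 4 (n = 3) and RMA-KR intermediate at day 7 (n = 5), RMA late at day 9 (n = 3) and RMA-KR late at day 14 (n = 3). At the intermediate and late stages the tumor and the day differ together, so their parts in a difference between RMA and RMA-KR cannot be told apart. Each library held between 5138651 and 14863500 counts on genes, with a median of 10489204. In no library did a receptor have fewer than 148 counts, the count of Cd226 in RMA-KR late 3, and the highest was 14310, the count of Tigit in RMA-KR late 1.

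TIGIT and CD226 compete for the same ligand, the poliovirus receptor CD155, which mouse cells make from Pvr. TIGIT inhibits NK cells through a motif in its cytoplasmic tail, whereas CD226 (also called DNAM-1) is an adhesion and activating receptor. CD96 binds CD155 as well and has been described mainly as an inhibitory receptor of mouse NK cells, and CRTAM appears on activated lymphocytes and binds the nectin-like protein made from Cadm1.

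Levels are given as normalized CPM, which are counts scaled by edgeR's TMM method to a common library total (CPM). To be called, a gene needed more than a 2-fold difference together with an adjusted p below 0.05. Unless another test is named, the test was edgeR's quasi-likelihood F test, and its p-values, adjusted over the 17097 genes by the Benjamini-Hochberg method, are written as edgeR's adjusted p. DESeq2 was run beside it, with default settings unless betaPrior=TRUE is named. The 6 comparisons with control share the same 4 control libraries, so that they are not independent of each other. Because each library is bulk RNA of many cells, fewer cells of a type and less RNA per cell cannot be told apart.

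Lists of genes are described below by their counts of tests over 14 comparisons, each tested gene giving 1 test in each. Over all genes and these comparisons, edgeR called 0.558% of 239358 tests and 11.5% had an unadjusted p under 0.05, while DESeq2 called 1.98%, or 1.41% with betaPrior=TRUE. With so few calls among all genes, 0 calls by edgeR in a short list is close to the background.

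The labelled cell type was checked first. The 9 NK cell markers summed to between 20650 and 37890 normalized CPM in the 24 libraries, and each of them was above 100 normalized CPM in every library, with a lowest value of 161 for Eomes. None was called in any of the 14 comparisons by edgeR, where 29 tests (23%, beside 11.5% of all tests) had an unadjusted p under 0.05, and none by DESeq2 with either setting. T cell markers were present mainly as Trbc1, the most abundant of the 11, at 181 to 419 normalized CPM. Cd3e did not exceed 5.00 normalized CPM and had 0 counts in 12 libraries, and Cd4 and Cd8a had 0 counts in 17 and 18. Of 112 tests of T cell markers, edgeR called 0, with 19 (17%) at an unadjusted p under 0.05, and DESeq2 called 1 with either setting, which by default was Cd3d in RMA-KR intermediate against RMA-KR early.

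Among 6 B cell markers the most abundant was Ighm, at 213 to 483 normalized CPM, while Ms4a1 had 0 counts in 17 libraries. Igkc reached 134 normalized CPM in RMA-KR late 2 and had a median of 1.68. For these 6 genes edgeR called 0 of 84 tests, with 8 (9.52%) at an unadjusted p under 0.05, and DESeq2 called 5, or 4 with betaPrior=TRUE. By default 3 of these were Igkc in RMA-KR late, higher than in control, RMA late and RMA-KR intermediate by 4.78, 5.91 and 5.81 on the log2 scale (DESeq2's adjusted p = 0.00661, 0.00614 and 0.000329), and the other two were Igkc, lower in RMA-KR intermediate than in RMA-KR early, and Cd79a, lower in RMA intermediate than in control. Cd68 was the most abundant of 6 macrophage and monocyte markers, with 78.0 normalized CPM in RMA-KR late 1, and Adgre1 and C1qa had 0 counts in 16 and 22 libraries. In this list edgeR called 0 of 42 tests, with 5 (11.9%) at an unadjusted p under 0.05, and DESeq2 called 1 with either setting, by default Cd68 in RMA-KR late against control. Granulocyte markers (5 genes, 0 of them tested) summed to 11.7 normalized CPM in RMA late 2 and to at most 1.71 in the other libraries. The 5 platelet and megakaryocyte markers summed to between 0.36 and 30.4 normalized CPM, the highest being RMA early 2, and edgeR called 0 of 70 tests, with 9 (12.9%) at an unadjusted p under 0.05, against 1 by DESeq2, Pf4 in RMA intermediate against RMA early, and 0 with betaPrior=TRUE. Red blood cell markers (4 genes, 1 tested) stayed at or below 3.57 normalized CPM in sum, with 0 called by either tool and 0 of 14 tests at an unadjusted p under 0.05.

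Before the receptors are described, 4 libraries have to be set apart: Control 4 and RMA-KR intermediate 3, 4 and 5. Immediate early genes such as Fos, Jun and Junb are induced within minutes of stimulation or handling of cells. Their 10 transcripts summed to 1976, 1695, 1959 and 1788 normalized CPM in these 4 libraries and to between 4968 and 12300 in the other 20. The libraries were recognized from this gap in the data, not from the labels. Among the other 20, the sums were 5616, 5448 and 5735 in RMA intermediate and 5751, 4968 and 6578 in RMA late, below those of all remaining libraries (7522 to 12300). In the same 4 libraries the 7 markers of type 1 innate lymphoid cells, relatives of NK cells, summed to 178, 220, 327 and 227 normalized CPM, against 21.1 to 83.3 elsewhere. Il7r was the most abundant of these markers, at 133 normalized CPM in RMA-KR intermediate 4. The markers went both ways in the means of RMA-KR intermediate and control. Higher were Il7r (60.5 and 26.3), Tmem176b (35.4 and 12.2), Cxcr6 (21.2 and 12.8), Tmem176a (19 and 3.96) and Cd200r1 (13.7 and 5.08). Itga1 (9.17 and 10.3) and Tnfsf10 (12.6 and 15.9) were lower. For this list edgeR called 0 of 98 tests, with 14 (14.3%) at an unadjusted p under 0.05, and DESeq2 called 4, or 3 with betaPrior=TRUE. By default these were Cd200r1 in RMA late against control and in RMA-KR late against RMA late, and Tmem176a and Tmem176b in RMA-KR late against RMA-KR intermediate. The NK cell markers summed to 22070, 22160 and 20650 in RMA-KR intermediate 3, 4 and 5, the lowest sums of the 24 libraries, and to 33830 and 35370 in RMA-KR intermediate 1 and 2. In Control 4 the sum was 24470, close to the 24400 of Control 1. Between 24621 and 27820 genes were detected in these 4 libraries and between 15263 and 24234 in the others.

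Of the 10 immediate early genes, edgeR called 1, Egr1, with a log2 fold change of 1.84 (SE 0.383, edgeR's adjusted p = 0.0151) in RMA-KR late against control. Its call was absent, leaving 0 of the 10 called, without Control 3, Control 4 or RMA-KR late 3, and with a term for the 4 libraries 2 of the 10 were called. With all libraries edgeR called 0 of the 10 in RMA late against control, but 3 without the 4 libraries and 5 with the term, and in RMA-KR intermediate against RMA intermediate 0, 5 and 3. In RMA intermediate it called 0, 1 and 2 against control and 0, 1 and 1 against RMA early. Over all comparisons 16 of 140 tests of this list (11.4%) had an unadjusted p under 0.05, and DESeq2 made 4 calls, 3 with betaPrior=TRUE.

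On the mm10 assembly Tigit (ENSMUSG00000071552) lies on chromosome 16 from 43648867 to 43664146, and Cd96 (ENSMUSG00000022657) on the same chromosome from 46035657 to 46120251. Cd226 (ENSMUSG00000034028) spans 89176967 to 89272229 on chromosome 18, and Crtam (ENSMUSG00000032021) spans 40969691 to 41004628 on chromosome 9. Tigit, Cd96 and Crtam are on the minus strand and Cd226 on the plus strand. In the GENCODE vM21 annotation, Tigit has 1 transcript with 4 exons and Cd96 1 transcript with 15 exons, while Cd226 has 10 transcripts and Crtam 4. No other gene, on either strand, overlaps any of them (0 overlapping genes each).

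For a comparison between receptors, levels were divided by the median transcript length in kb given in the table. In control NK cells, Cd96 was at 107 ± 6.89 (SD, n = 4) normalized CPM per kb, Cd226 at 95.3 ± 24.6 and Tigit at 91.9 ± 33.0. Which of these was highest differed between control libraries, with Cd96 first in Control 1, Cd226 in Control 2 and Control 4, and Tigit in Control 3. Crtam was at 11.6 ± 5.97 normalized CPM per kb, below the other receptors in each control library. In RMA-KR late NK cells the order of the means per kb was Tigit (780 ± 528, SD, n = 3), Cd96 (165 ± 58.2), Cd226 (31.9 ± 21.4) and Crtam (16.9 ± 5.90). Tigit was above Cd96 and Cd96 above Cd226 in each of the 3 libraries, while in RMA-KR late 3 Crtam, at 23.6 normalized CPM per kb, was above Cd226, at 14.4.

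**Figure D1:**
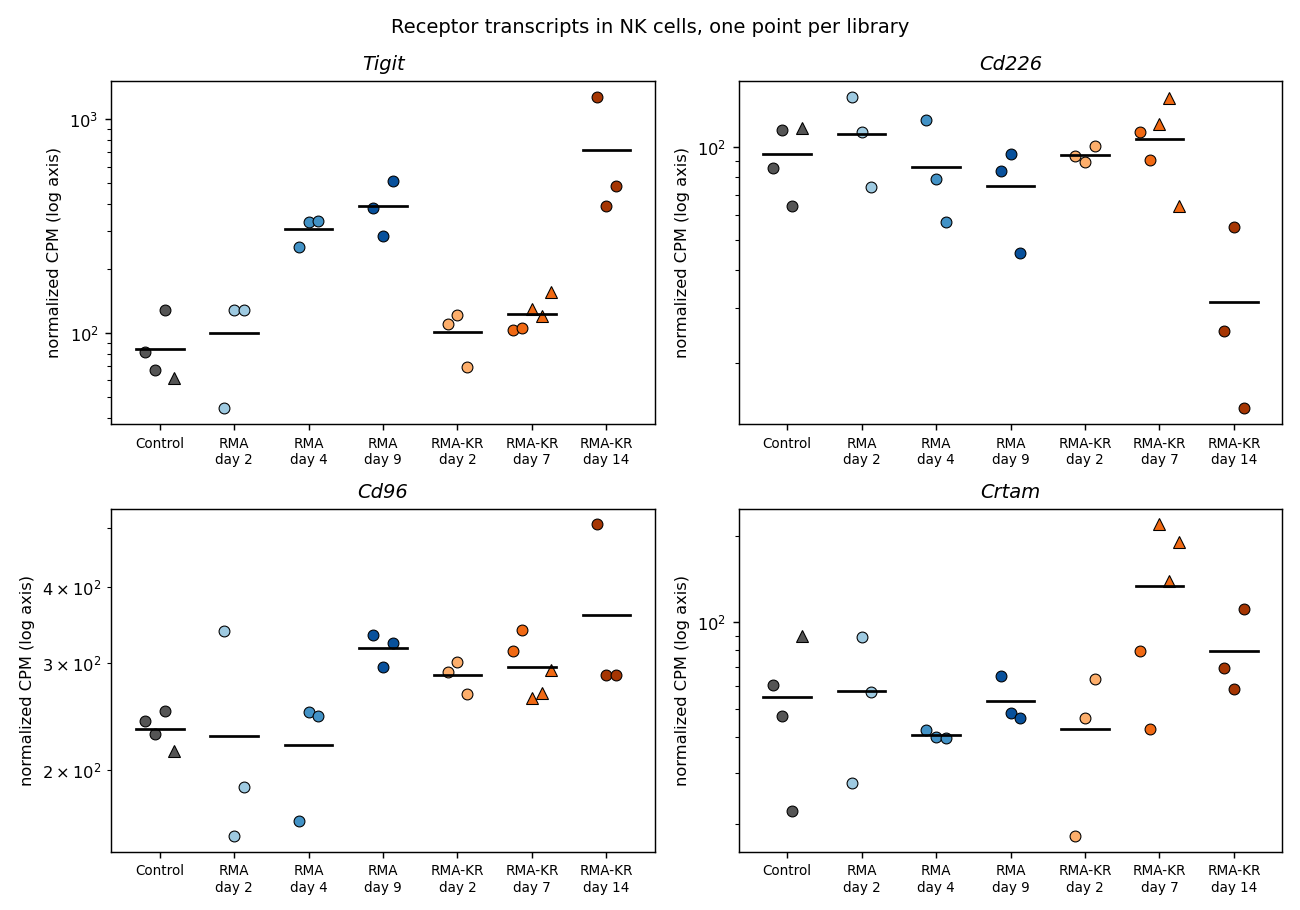
Normalized CPM (log axes) of the 4 receptor transcripts in each of the 24 libraries, by group. Points are libraries, triangles mark the 4 libraries with low immediate early transcripts, and bars are group means. Tigit is highest in RMA-KR late (391 to 1274), Cd226 is lowest there (14.3 to 55.2), and the 3 highest Crtam values (139 to 219) are all triangles.

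Tigit, the inhibitory receptor, was higher than in control NK cells at the intermediate and late stages of RMA and at the late stage of RMA-KR. Control libraries had 81.7, 66.7, 128 and 61.2 normalized CPM. At day 2, RMA libraries had 44.3, 128 and 128, and RMA-KR libraries had 110, 122 and 69.5. Both early groups overlapped the controls. With RMA, Tigit then measured 252, 329 and 334 normalized CPM at day 4, and 383, 284 and 511 at day 9. Each of these 6 libraries was above the highest control, and the 2 groups overlapped each other. With RMA-KR, the 5 libraries of day 7 had 103, 105, 129, 120 and 155 normalized CPM, and those of day 14 had 1274, 391 and 484. The day 7 libraries overlapped the controls, while all 3 of day 14 were above every control and every day 7 library, with RMA-KR late 1 far above the other two.

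In RMA intermediate the log2 fold change of Tigit against control was 1.85 (SE 0.366, edgeR's adjusted p = 0.00622), in a comparison that called 1.65% of all genes tested. It was 2.22 (SE 0.369, edgeR's adjusted p = 0.00149) in RMA late, where 1.79% were called. In RMA-KR late it was 3.09 (SE 0.378, edgeR's adjusted p = 0.000251), rank 2 by p among 17097 genes of which 0.983% were called. These shares stand for 282, 306 and 168 genes. With 1 library left out, the first count was 166 without RMA intermediate 3, 176 without RMA intermediate 2 and 175 without Control 1 or Control 4. The second was 127 without RMA late 2, 161 without RMA late 1, 193 without Control 1 and 191 without Control 4. The last was 71 without Control 2, 84 without RMA-KR late 1, 87 without Control 4, 96 without Control 3 and 111 without Control 1. The medians over all tested genes were −0.29, −0.18 and −0.18 in these 3 comparisons. Tigit kept its call in each of them under every alternative setting and without any single library, the highest edgeR adjusted p being 0.0397, 0.0144 and 0.0195. Without RMA-KR late 1 its log2 fold change in RMA-KR late was 2.36 (edgeR's adjusted p = 0.00124). Immediate early sums were below those of Control 1, 2 and 3 (8521, 9015 and 10550) in every RMA intermediate and RMA late library, and were 8352, 7522 and 9419 in RMA-KR late. Their part in the level of Tigit was not tested.

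Against control, the early groups gave log2 fold changes of Tigit of 0.25 with RMA (SE 0.365, 95% interval −0.51 to 1.00) and 0.25 with RMA-KR (SE 0.365, 95% interval −0.50 to 1.01). Neither passed (edgeR's adjusted p = 0.935 and 0.95). RMA-KR early called 0.0819% of all genes. RMA early called 0% by edgeR, with 1204 genes at an unadjusted p under 0.05, whereas DESeq2 called 66 genes with its default settings and 24 with betaPrior=TRUE. At day 7 of RMA-KR the value was 0.53 (SE 0.325, 95% interval −0.14 to 1.20, edgeR's adjusted p = 0.970), where 0.0175% of genes were called, and 0.19 (edgeR's adjusted p = 0.999) without the 4 libraries low in immediate early transcripts.

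The steps between stages were tested in the same fit. From early to intermediate RMA, Tigit rose by 1.60 on the log2 scale (SE 0.400, edgeR's adjusted p = 0.0341), all 3 RMA intermediate libraries being above all 3 early ones, and 1.73% of genes were called. This call was lost without RMA early 1 (edgeR's adjusted p = 0.176), RMA early 2 (0.0540), RMA intermediate 1 (0.0541), RMA intermediate 2 (0.0952) or RMA intermediate 3 (0.126), and without the 4 libraries low in immediate early transcripts (0.0542). It was also lost with the replicate number as a block (edgeR's adjusted p = 0.0600) and with only the libraries of the groups compared (0.102). From intermediate to late RMA the log2 change was 0.36 (SE 0.389, 95% interval −0.44 to 1.17), and edgeR called 0% of genes, with 763 at an unadjusted p under 0.05, against 35 by DESeq2 with default settings and 0 with betaPrior=TRUE. With RMA-KR the early to intermediate step was 0.28 (SE 0.352, 95% interval −0.45 to 1.01), or 0.03 without the 4 libraries low in immediate early transcripts, in a comparison that called 0.462% of genes. The following step to RMA-KR late was 2.55 (SE 0.344, edgeR's adjusted p = 0.00130), again rank 2 by p, with 0.298% of genes called. It was 1.85 (edgeR's adjusted p = 0.0113) without RMA-KR late 1 and 2.80 (edgeR's adjusted p = 0.0482) without the 4 libraries low in immediate early transcripts.

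The models were then set against each other at each stage. At the early stage the difference in Tigit, RMA-KR minus RMA, was 0.00 on the log2 scale (SE 0.391, 95% interval −0.81 to 0.81), where 0.304% of genes were called. At the intermediate stage it was −1.32 (SE 0.341, edgeR's adjusted p = 0.0851), with all 5 RMA-KR libraries below all 3 RMA libraries, in a comparison that called 0.503% of genes. This difference was called under 5 of 9 alternative settings, DESeq2 with default settings among them (adjusted p = 0.0333). The lowest edgeR adjusted p was 2.23e-06, with no filter on low counts. Without the 4 libraries low in immediate early transcripts the difference was −1.55 (edgeR's adjusted p = 0.227). At the late stage it was 0.87 (SE 0.392, edgeR's adjusted p = 0.655), the groups overlapped, and it was 0.15 (edgeR's adjusted p = 0.959) without RMA-KR late 1. That comparison called 0% of genes by edgeR, with 1249 at an unadjusted p under 0.05, against 56 by DESeq2 with default settings and 12 with betaPrior=TRUE. The change from early to late was 0.86 larger with RMA-KR than with RMA on the log2 scale (SE 0.552, 95% interval −0.28 to 2.01, edgeR's adjusted p = 0.613). For this difference of changes edgeR called 0% of genes, with 1777 at an unadjusted p under 0.05, and DESeq2 called 154 and 72.

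Across all 7 groups at once, Tigit differed with edgeR's adjusted p = 1.92e-05, rank 12 by p, where 5.69% of genes passed, and with 0.000405 without the 4 libraries low in immediate early transcripts. In order of mean level the groups were RMA-KR late (716 ± 485 normalized CPM, SD, n = 3), RMA late (393 ± 114, n = 3), RMA intermediate (305 ± 45.8, n = 3), RMA-KR intermediate (122 ± 21.1, n = 5), RMA-KR early (101 ± 27.5, n = 3), RMA early (100.2 ± 48.4, n = 3) and control (84.4 ± 30.3, n = 4). Neighbours in this order overlapped, except RMA intermediate and RMA-KR intermediate.

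Between groups, cell cycle transcripts were high where Tigit was high. The sum of 10 of them, Top2a and Mcm5 among the most abundant, was between 1695 and 4355 normalized CPM in RMA intermediate, RMA late and RMA-KR late, and between 390 and 1853 in the other groups. Against control, all 10 were called higher in RMA intermediate, 8 in RMA late and 6 in RMA-KR late, with medians of 3.42, 3.54 and 3.21 on the log2 scale beside the −0.29, −0.18 and −0.18 of all genes. In RMA-KR late the count was 3 without the 4 libraries low in immediate early transcripts. RMA-KR intermediate against RMA intermediate had 6 called lower, 3 without those 4 libraries, 2 with a term for them, and 3 without RMA intermediate 2, RMA intermediate 3, RMA-KR intermediate 1 or RMA-KR intermediate 4. In RMA intermediate against RMA early 5 were called higher, and 0 without RMA early 1, 2 without RMA early 2, 3 without RMA intermediate 1, and 1 without RMA intermediate 2 or RMA intermediate 3. RMA-KR late against RMA-KR intermediate had 5 called higher, 2 without RMA-KR intermediate 1, RMA-KR intermediate 5, RMA-KR late 1 or RMA-KR late 2, 1 without RMA-KR intermediate 3 or RMA-KR intermediate 4, and 0 without all 4 libraries low in immediate early transcripts or with a term for them. Within the late groups the order of libraries differed: the RMA late library with the most Tigit (511) had the lowest cell cycle sum (2005), and the RMA-KR late library with the least Tigit (391) had the highest (3280). RMA-KR late had the highest mean Tigit of the 7 groups, while its other cell cycle sums, 1747 and 1695, were below those of every RMA intermediate and RMA late library. The part of cycling cells in the level of Tigit was not tested.

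T cells can also express Tigit, and their markers summed to 596, 504 and 467 normalized CPM in RMA late and to 342 to 414 in controls, and to 506, 416 and 420 in RMA-KR late. In RMA intermediate, where Tigit was already above every control, the T cell sum was 329, 309 and 282, below every control. From control to RMA late the mean of Trbc1 went from 261 to 347, of Trbc2 from 98.6 to 135, of Cd3d from 6.29 to 10.2, of Cd3g from 6.47 to 15.7 and of Trac from 8.40 to 12.6 normalized CPM. The mean of Cd3e went from 1.25, with 5.00 in Control 4, to 0.256. In RMA-KR late the means of Trbc1, Trbc2 and Trac were 308, 111 and 16.7, above those of control. Those of Cd3d, Cd3g and Cd3e were 4.76, 5.13 and 0.22, below those of control. The median log2 fold change of the T cell markers tested was −0.369 in RMA-KR late, beside −0.175 for all genes. Macrophage and monocyte markers summed to 36.6, 33.2 and 50.9 in RMA late, to 78.5, 70.4 and 36.2 in RMA-KR late and to 8.74 to 18.1 in controls. Cd68, which carried most of the sum, averaged 57.9 in RMA-KR late and 11.1 in controls, and Lyz2 3.86 and 0.621, whereas Csf1r, Adgre1, C1qa and C1qb all had 0 counts in RMA-KR late. B cell markers summed to 489, 581 and 407 in RMA-KR late and to 238.2 to 399 in controls. RMA is a T cell lymphoma line, so tumor cells may carry T cell markers too. The part of tumor cells and of these other cells in the late values was not tested.

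Cd226, the activating receptor for the same ligand, was lower in RMA-KR late than in control NK cells, by a call that single libraries could end. Controls had 85.2, 113, 64.1 and 115 normalized CPM. RMA libraries had 145, 112 and 74.0 at day 2, 122, 78.5 and 57.2 at day 4, and 83.2, 94.7 and 45.4 at day 9. All 3 RMA groups overlapped the controls. RMA-KR libraries had 93.0, 88.9 and 101 at day 2, and 111, 90.8, 118, 143 and 64.2 at day 7. At day 14 they had 25.3, 55.2 and 14.3. All 3 day 14 libraries lay below every control, the highest of them, RMA-KR late 2, by a small margin, and so did RMA intermediate 3 and RMA late 3.

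Against control, Cd226 in RMA-KR late had a log2 fold change of −1.58 (SE 0.389, edgeR's adjusted p = 0.0445). The call was lost without Control 1 (edgeR's adjusted p = 0.0750), Control 2 (0.117), Control 4 (0.121), RMA-KR late 1 (0.196) or RMA-KR late 3 (0.221). Leaving out RMA-KR late 2 gave −2.22 (edgeR's adjusted p = 0.00885). Without the 4 libraries low in immediate early transcripts, which include Control 4, it was −1.44 (edgeR's adjusted p = 0.131), and with a term for those libraries −1.52 (edgeR's adjusted p = 0.0666). With only the libraries of the groups compared it was −1.56 (edgeR's adjusted p = 0.140). In the other groups the log2 fold changes against control ran from −0.34 in RMA late (95% interval −1.11 to 0.43) to 0.22 in RMA early (95% interval −0.54 to 0.99), and none passed.

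From RMA-KR intermediate to RMA-KR late, Cd226 fell by 1.74 on the log2 scale (SE 0.381, edgeR's adjusted p = 0.0446), with all 3 late libraries below all 5 intermediate ones. Here too the call was lost without RMA-KR intermediate 1 (edgeR's adjusted p = 0.0754), RMA-KR intermediate 3 (0.0883), RMA-KR intermediate 4 (0.137), RMA-KR late 1 (0.246) or RMA-KR late 3 (0.255). It became −2.39 (edgeR's adjusted p = 0.00701) without RMA-KR late 2, and −1.66 (edgeR's adjusted p = 0.295) without the 4 libraries low in immediate early transcripts. A term for those libraries gave −1.61 (edgeR's adjusted p = 0.262), and only the libraries of the groups compared −1.76 (edgeR's adjusted p = 0.249). Between late RMA-KR and late RMA the difference in Cd226 was −1.23 (SE 0.403, 95% interval −2.07 to −0.40, unadjusted p = 0.00552, edgeR's adjusted p = 0.655), and the groups overlapped at RMA late 3. The change from early to late differed between the models by −1.01 (SE 0.562, edgeR's adjusted p = 0.551).

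The order of the groups by mean Cd226 was RMA early (110.2 ± 35.5 normalized CPM, SD, n = 3), RMA-KR intermediate (106 ± 29.8, n = 5), control (94.4 ± 24.4, n = 4), RMA-KR early (94.2 ± 6.02, n = 3), RMA intermediate (85.9 ± 33.0, n = 3), RMA late (74.4 ± 25.8, n = 3) and RMA-KR late (31.6 ± 21.2, n = 3). All neighbours overlapped. Over the 7 groups together the test gave edgeR's adjusted p = 0.0827, 0.0148 without RMA-KR late 2 and 0.155 without the 4 libraries low in immediate early transcripts. Among 7 alternative settings, 4 did call Cd226 in this test, the replicate block being 1 of them. The lowest edgeR adjusted p was 0.000596, with no filter on low counts. Platelets also carry CD226, and their markers summed to 4.27, 3.72 and 1.45 normalized CPM in RMA-KR late and to between 1.85 and 3.38 in controls. Beside RMA-KR late 1 and 2, the sums were above every control in RMA early (8.81, 30.4 and 20.1), RMA-KR early (15.2, 18.2 and 16.7), RMA late (7.14, 5.86 and 12.4) and RMA-KR intermediate 3, 4 and 5 (4.82, 4.66 and 13.7). In RMA intermediate and in RMA-KR intermediate 1 and 2 they were at most 2.06. The markers went both ways. Itga2b averaged 2.46 in RMA-KR late and 4.1 in RMA-KR intermediate (0.459 in control), and Pf4 0.257 and 0.426 (0.0685). Lower than in control were Gp9, at 0 and 0.0688 (1.19), Ppbp, at 0 and 0.115 (0.225), and Gp1bb, at 0.436 and 0.298 (0.518). The part of platelets in Cd226 was not tested.

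**Figure D2:**
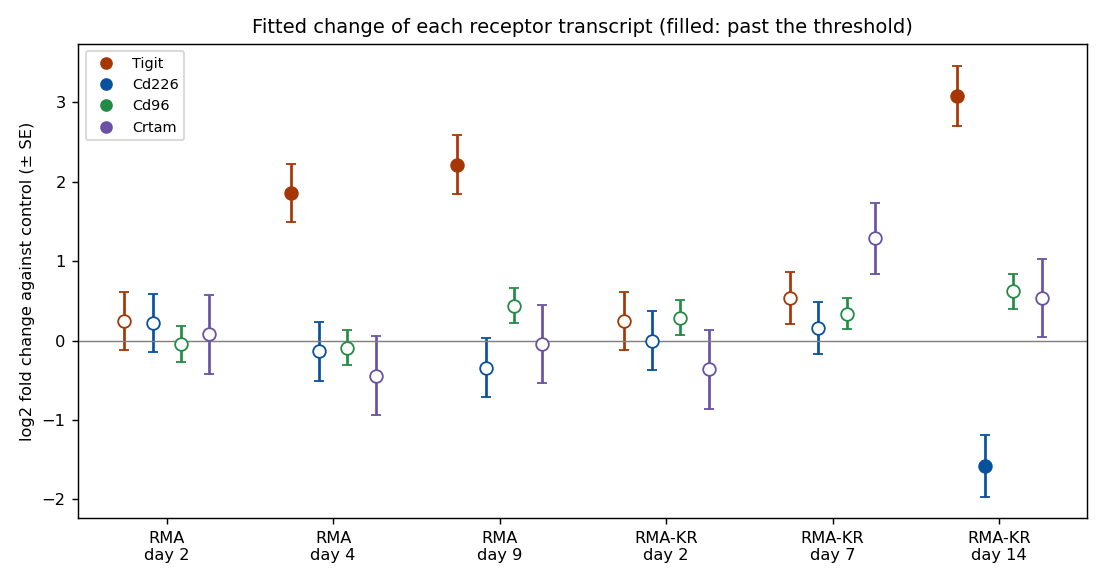
Log2 fold change against control (vertical axis) of each receptor transcript in the 6 tumor groups, with bars of 1 SE from the edgeR fit. Filled points were called: Tigit in RMA day 4 (1.85), RMA day 9 (2.22) and RMA-KR day 14 (3.09), and Cd226 in RMA-KR day 14 (−1.58).

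Cd96 was the steadiest of the 4 receptors between controls and was not called in any comparison. Controls had 240.5, 229, 250.2 and 215 normalized CPM. RMA libraries had 338, 156 and 188 at day 2, 165, 249 and 245 at day 4, and 333, 296 and 324 at day 9. RMA early libraries lay on both sides of the controls, and those of RMA late were all above them. With RMA-KR the values were 290.1, 301 and 267 at day 2, 313, 340, 263, 267 and 292 at day 7, and 506, 286 and 286 at day 14. All 11 RMA-KR libraries were above the highest control. The share of all genes with such a separation was not counted.

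None of these differences from control passed the adjusted threshold. Log2 fold changes of Cd96 against control were 0.29 in RMA-KR early (SE 0.221, edgeR's adjusted p = 0.800), 0.34 in RMA-KR intermediate (SE 0.196, edgeR's adjusted p = 0.942) and 0.62 in RMA-KR late (SE 0.220, 95% interval 0.17 to 1.08, unadjusted p = 0.00960, edgeR's adjusted p = 0.222). In RMA late the value was 0.44 (SE 0.220, 95% interval −0.01 to 0.90, edgeR's adjusted p = 0.374). RMA early and RMA intermediate gave −0.04 (95% interval −0.50 to 0.42) and −0.09 (95% interval −0.55 to 0.37). Its intervals against control all ended at or below a log2 fold change of 1.08. DESeq2 with default settings did not call it in RMA-KR late either (adjusted p = 0.132). Without the 4 libraries low in immediate early transcripts the values were 0.46 (edgeR's adjusted p = 0.733) in RMA-KR intermediate and 0.62 (edgeR's adjusted p = 0.372) in RMA-KR late.

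By mean Cd96 the order was RMA-KR late (359 ± 127 normalized CPM, SD, n = 3), RMA late (317 ± 19.4, n = 3), RMA-KR intermediate (295 ± 32.2, n = 5), RMA-KR early (286 ± 17.3, n = 3), control (234 ± 15.1, n = 4), RMA early (227 ± 97.1, n = 3) and RMA intermediate (220 ± 47.4, n = 3). RMA-KR early and control were the only neighbours without overlap. The test over the 7 groups gave edgeR's adjusted p = 0.196, and 0.0293 without RMA early 1, the library with 338 normalized CPM.

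Crtam was highest in RMA-KR intermediate, in the libraries that were low in immediate early transcripts. Controls had 60.6, 47.4, 22.1 and 89.8 normalized CPM, the last in Control 4. RMA libraries had 27.8, 88.9 and 57.4 at day 2, 42.2, 39.8 and 39.5 at day 4, and 65.0, 48.6 and 46.4 at day 9. These all lay within the range of the controls. RMA-KR libraries had 18.1, 46.7 and 63.4 at day 2, 79.5, 42.7, 219, 139 and 190.2 at day 7, and 69.2, 58.8 and 111 at day 14. At day 7 the 3 values above every control were those of RMA-KR intermediate 3, 4 and 5. Within the controls, too, the library low in immediate early transcripts was the highest.

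In the fit to all libraries, the log2 fold change of Crtam in RMA-KR intermediate was 1.29 against control (SE 0.446, unadjusted p = 0.00836, edgeR's adjusted p = 0.687). Against RMA intermediate it was 1.73 (SE 0.505, edgeR's adjusted p = 0.154), with all 5 libraries above all 3, and against RMA-KR early 1.65 (SE 0.503, edgeR's adjusted p = 0.124). The last of these 3 was called without RMA-KR intermediate 2 (1.85, edgeR's adjusted p = 0.0417). DESeq2 with default settings called the differences from RMA intermediate (adjusted p = 0.0221) and from RMA-KR early (adjusted p = 0.0276).

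Without the 4 libraries low in immediate early transcripts, the same 3 values were 0.51 (edgeR's adjusted p = 0.878), 0.60 (edgeR's adjusted p = 0.803) and 0.50 (edgeR's adjusted p = 0.761). With a term for those libraries they were 0.70, 0.72 and 0.64 (edgeR's adjusted p = 0.989, 0.756 and 0.701). The sum of type 1 innate lymphoid cell markers was also highest in the 4 libraries. Not every marker was, Tnfsf10 being highest in RMA intermediate 1 (24.2 normalized CPM). Of the NK cell markers, Il2rb was highest in RMA-KR intermediate 4 (3710 normalized CPM), but their sum was lowest in RMA-KR intermediate 3, 4 and 5. T cell markers summed to 459, 479.5 and 446 normalized CPM in these 3 libraries, 374.5 and 426 in RMA-KR intermediate 1 and 2, and 342 to 414 in controls. Cd3d averaged 17.7 in RMA-KR intermediate and 6.29 in control, and Cd3g 17 and 6.47, both with their highest value in RMA-KR intermediate 4 (30.6 and 24.2), whereas Trac averaged 8.41 and 8.40 and Cd3e 1.17 and 1.25. T cell sums were higher still in RMA-KR early 2 and 3 (550.2 and 567), where Crtam was within the range of the controls. The part of innate lymphoid cells, T cells, tumor cells and NK cell markers in Crtam was not tested. The other comparisons of Crtam ran from −0.75 for RMA-KR late against RMA-KR intermediate (95% interval −1.75 to 0.25), which became 0.41 (edgeR's adjusted p = 0.919) without the 4 libraries low in immediate early transcripts, to 0.58 for RMA-KR late against RMA late (95% interval −0.51 to 1.67), and its change from early to late differed between models by 1.02 (95% interval −0.52 to 2.56).

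By mean level the groups were ordered RMA-KR intermediate (134 ± 73.8 normalized CPM, SD, n = 5), RMA-KR late (79.8 ± 27.9, n = 3), RMA early (58.0 ± 30.6, n = 3), control (55.0 ± 28.2, n = 4), RMA late (53.3 ± 10.2, n = 3), RMA-KR early (42.7 ± 22.9, n = 3) and RMA intermediate (40.5 ± 1.44, n = 3). Neighbours in the order of Crtam all overlapped, and the test over the 7 groups gave edgeR's adjusted p = 0.0957, 0.0256 without RMA-KR intermediate 2 and 0.554 without the 4 libraries low in immediate early transcripts. Crtam was called in this test under 3 of 7 alternative settings. The lowest edgeR adjusted p was 5.38e-07, with no filter on low counts.

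**Figure D3:**
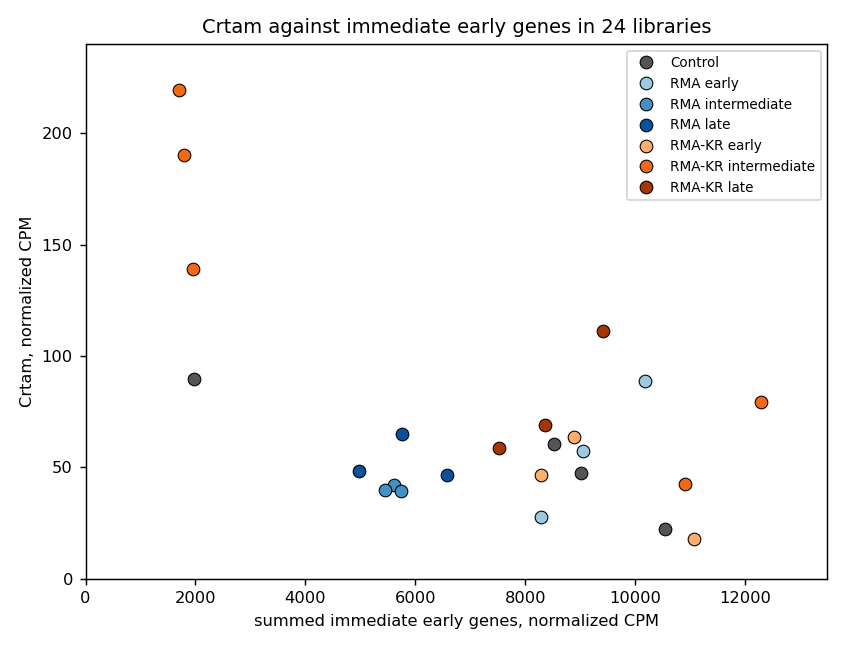
Crtam (vertical axis) against the sum of 10 immediate early transcripts (horizontal axis), both in normalized CPM, 1 point per library and 1 color per group. The 4 libraries at the left have sums of 1695 to 1976, and 3 of them, from RMA-KR intermediate, have the highest Crtam values (139 to 219). The other of them is Control 4, with 89.8.

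The balance of the competing receptors' transcripts was taken inside each library as the log2 ratio of Tigit to Cd226 counts. To each count 0.5 was added, and library size and scaling cancel in the ratio. This is a balance of RNA, and surface protein was not measured here. The study's flow cytometry found TIGIT at low levels on NK cells. A balance of 0 means equal counts, and the transcripts have similar median lengths (919 and 990.5 bases). In control NK cells it was −0.06, −0.76, 1.00 and −0.91, so that Cd226 had more counts than Tigit in 3 of 4 libraries. At day 2 it was −1.71, 0.20 and 0.79 with RMA and 0.25, 0.45 and −0.54 with RMA-KR. These early libraries spread around 0 as the controls did.

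At day 4 of RMA the balance was 1.05, 2.06 and 2.55, and at day 9 it was 2.202, 1.58 and 3.49. All 6 libraries were above the highest control, RMA intermediate 1 by only a little. At day 7 of RMA-KR it was −0.12, 0.21, 0.12, −0.26 and 1.27, of which 1 library, RMA-KR intermediate 5, was above the highest control. At day 14 it was 5.65, 2.82 and 5.08. In reads, RMA-KR late 1 had 14310 of Tigit and 284 of Cd226, RMA-KR late 2 had 5561 and 785, and RMA-KR late 3 had 5025 and 148.

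As a share of the reads of both genes, Tigit took 98.1% in RMA-KR late 1 (exact Clopper-Pearson 95% interval 97.8 to 98.3), 87.6% in RMA-KR late 2 (86.8 to 88.4) and 97.1% in RMA-KR late 3 (96.7 to 97.6). The 4 controls had 49.0% (45.6 to 52.3), 37.0% (34.9 to 39.3), 66.6% (64.4 to 68.8) and 34.8% (32.7 to 36.9). Within each of these groups the intervals did not overlap, except for Control 2 and Control 4, so that libraries of a group differed beyond counting error. Mean shares were 46.9% ± 14.6 (SD, n = 4) in control, 46.8% ± 20.8 (n = 3) in RMA early, 77.8% ± 9.33 (n = 3) in RMA intermediate and 83.0% ± 8.44 (n = 3) in RMA late. With RMA-KR they were 50.95% ± 8.97 (n = 3) early, 54.0% ± 9.87 (n = 5) at the intermediate stage and 94.3% ± 5.77 (n = 3) late.

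**Figure D4:**
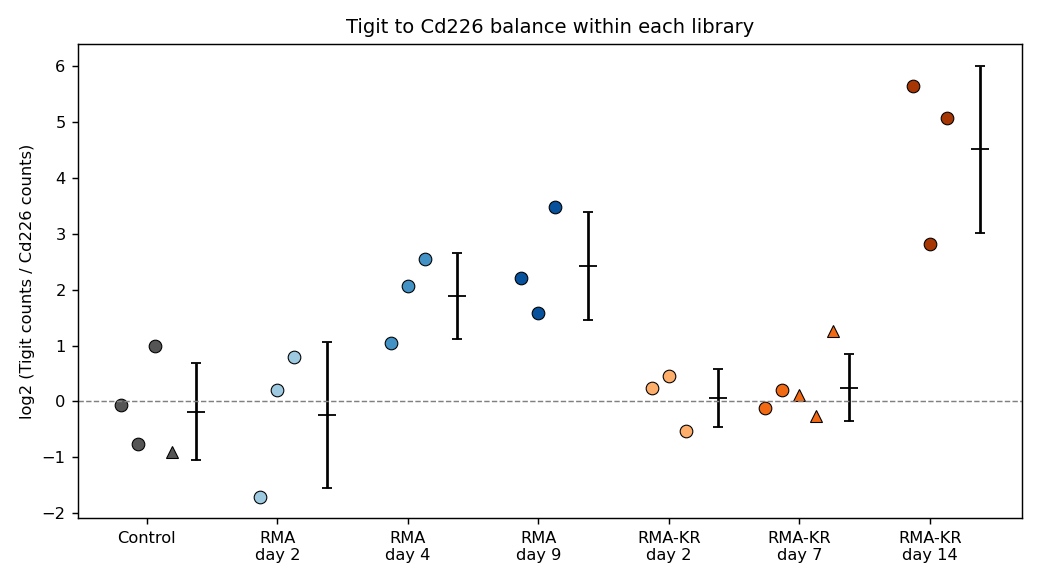
Log2 ratio of Tigit to Cd226 counts (vertical axis) in each library by group, with the group mean ± SD beside the points. Triangles are the 4 libraries with low immediate early transcripts, and the dashed line marks equal counts. All libraries of RMA day 4, RMA day 9 and RMA-KR day 14 are above the highest control (1.00), and RMA-KR day 14 reaches 5.65.

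The mean balance was −0.18 ± 0.87 (SD, n = 4) in control, and it was higher by 2.07 in RMA intermediate, 2.61 in RMA late and 4.70 in RMA-KR late. Each of these 3 differences gave a 2-sided exact permutation p of 0.05714, taken as double the smaller tail, which is the smallest that this form of the test can give with 3 libraries against 4. Adjusted over the 6 tumor groups by the Benjamini-Hochberg method, each exact p was 0.1143. Counted instead as the share of the 35 splits with an absolute difference at least as large, where 0.02857 is possible, the exact p was 0.02857 for RMA-KR late and 0.05714 for the other two, again 0.1143 each after adjustment. In all 3 groups, 3 of 3 libraries were above the highest control. Without the 4 libraries low in immediate early transcripts the differences in balance were 1.83, 2.37 and 4.46. The differences were −0.06 in RMA early (exact permutation p = 0.9714), 0.24 in RMA-KR early (exact permutation p = 0.7429) and 0.43 in RMA-KR intermediate (exact permutation p = 0.4286, where 0.01587 was possible), the last being −0.01 without the 4 libraries low in immediate early transcripts.

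Taken over its whole course, each model differed from control by 1.54 in mean balance, with exact permutation p = 0.08951 for RMA and 0.1407 for RMA-KR, both 0.1407 after adjustment over the 2 courses. Without RMA early 1, whose balance was −1.71, the adjusted exact permutation p for RMA was 0.0242, and without Control 3 that for RMA-KR was 0.0440. Without the 4 libraries low in immediate early transcripts the balance differed by 1.30 for RMA and 1.67 for RMA-KR (adjusted exact permutation p = 0.364 for both). With the tumor label permuted inside each stage, RMA-KR minus RMA averaged 0.25 (exact permutation p = 0.67). By stage the difference was 0.29 early (exact permutation p = 0.8, with 0.1 possible), −1.64 at the intermediate stage (exact permutation p = 0.07143, with 0.03571 possible; −1.84 without RMA-KR intermediate 3, 4 and 5) and 2.09 late (exact permutation p = 0.2, with 0.1 possible). From absolute differences the exact permutation p of the intermediate stage was 0.03571, not adjusted over the 3 stages, and those of the other two were the same as before. The stages thus differed in sign.

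In order of mean balance the groups were RMA-KR late (4.52 ± 1.496, SD, n = 3), RMA late (2.43 ± 0.97, n = 3), RMA intermediate (1.89 ± 0.76, n = 3), RMA-KR intermediate (0.25 ± 0.60, n = 5), RMA-KR early (0.05 ± 0.52, n = 3), control and RMA early (−0.24 ± 1.31, n = 3). The balance overlapped between all neighbours in this order.

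**Figure D5:**
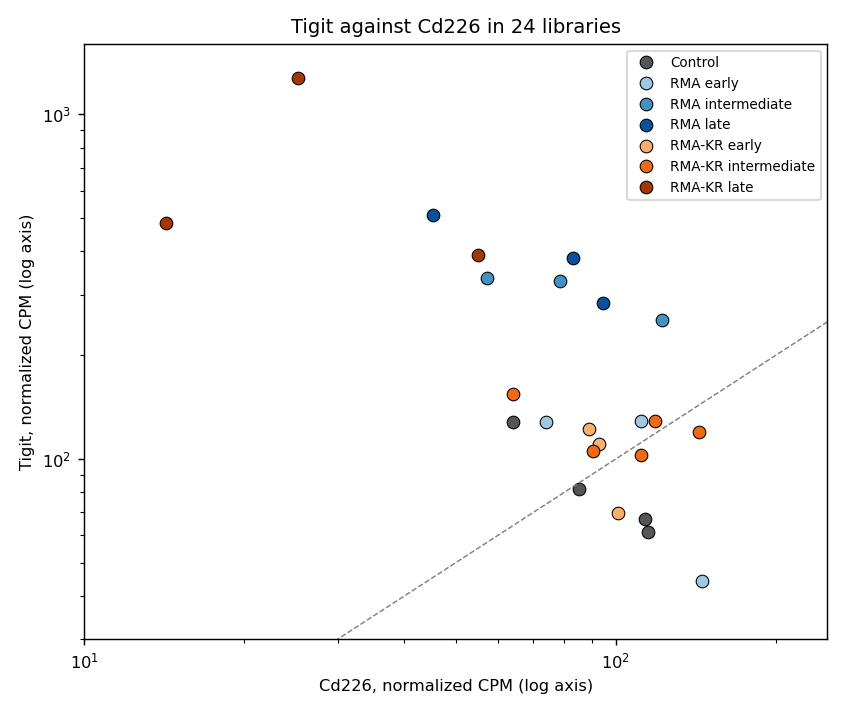
Tigit (vertical axis) against Cd226 (horizontal axis), both in normalized CPM on log axes, 1 point per library and 1 color per group. The dashed line marks equal levels. RMA-KR late libraries are at the upper left (Tigit 391 to 1274, Cd226 14.3 to 55.2), and in most groups the library with the most Tigit has the least Cd226.

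The balance also varied between libraries of a group. After the group mean was taken from the log2 level of each gene, Tigit and Cd226 had a Pearson r of −0.544 and a Spearman rho of −0.63 over the 24 libraries. Without the 2 libraries farthest from the median of Tigit the Pearson r was −0.58, and over the 20 libraries not low in immediate early transcripts it was −0.536. Cd96 and Crtam had a Pearson r of −0.5 and a Spearman rho of −0.542, with −0.472 without the 2 farthest libraries and −0.49 over the 20. The remaining 4 of the 6 pairs lay between −0.123 and 0.0664 by Pearson and between −0.25 and 0.187 by Spearman. These values describe libraries that share a scaling and are given with no p.

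The ligands were low in the sorted cells, as RNA of NK cells and not of the tumor or spleen around them. Pvr, which encodes CD155, ran from 0 to 37.4 normalized CPM with a median of 13.1 and averaged 14.3 in control, 10.1 in RMA late and 12.5 in RMA-KR late. Cadm1, whose protein binds CRTAM, had a median of 0.160 normalized CPM, 0 counts in 9 libraries and a highest value of 12.0 in RMA early 2. Nectin3, Nectin4, Cadm2 and Cadm3 had medians between 0 and 1.33, and Nectin1, Nectin2 and Cadm4 had too few counts to be tested. Of 84 tests of the 6 ligands that were tested, edgeR called 0, with 10 at an unadjusted p under 0.05, and DESeq2 called 1 with either setting, by default Cadm1 in RMA intermediate against RMA early. The 10 are 11.9% of the tests, close to the 11.5% of all genes, of which edgeR called 0.558%. Pvrig, a related inhibitory receptor, ran from 23.6 to 85.8 normalized CPM and was called in 0 of 14 comparisons by edgeR and by DESeq2, with 0 at an unadjusted p under 0.05.

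Among 13 genes of proteins that act with these receptors, all were tested. They include the phosphatase genes Inpp5d (208 to 448 normalized CPM) and Ptpn6 (189 to 684), the kinase gene Fyn (109 to 240), Vav1 (327 to 627), and Itgal and Itgb2 (1450 to 2260 and 2970 to 5330), which encode the integrin LFA-1 that CD226 associates with. In 182 tests over the 14 comparisons edgeR called 0 of them, with 21 at an unadjusted p under 0.05, and DESeq2 called 0. The 21 are 11.5% of the tests, the same share as over all genes, so that these counts are at the background. In RMA-KR late against control their median log2 fold change was −0.06 beside −0.18 for all genes tested, and in RMA late −0.13 beside −0.18.

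The genes whose log2 levels followed each receptor most closely, among those with a mean of at least 10 normalized CPM, were ranked by Pearson r over the 24 libraries and over the 20 from tumor-bearing mice. For Tigit they were Spp1 (0.908), Lgals3 (0.891) and Serpinb6b (0.889), and the same 3 genes came first over the 20 tumor libraries (0.887, 0.88 and 0.872). For Cd226 they were Hdac2 (0.809), Upf1 (0.802) and Nek1 (0.799), but over the 20 tumor libraries Cdh22 (0.843), Kcnj8 (0.82) and Ptgs1 (0.817). By Pearson r, no gene was on both lists for Cd226.

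For Cd96 they were Mri1 (0.769), Fuca1 (0.73) and Cd84 (0.722), and over the tumor libraries Cd84 (0.775), Mri1 (0.767) and Taf1b (0.75). For Crtam they were Lpar5 (0.777), Carmil2 (0.755) and Ptger2 (0.728), and the same 3 genes led over the tumor libraries, with 0.804 for Lpar5, 0.763 for Carmil2 and 0.781 for Ptger2. By Spearman rho the first gene over the 24 libraries was Spp1 for Tigit (0.914), Klrc1 for Cd226 (0.748), Fuca1 for Cd96 (0.799) and Cd27 for Crtam (0.765), and over the 20 tumor libraries Xpnpep1 (0.893), Upf1 (0.776), Taf1b (0.83) and Cd27 (0.764). Lgals3 and Serpinb6b were not among the first 3 genes for Tigit by Spearman rho, nor Lpar5, Carmil2 and Ptger2 for Crtam. Over the 20 libraries that were not low in immediate early transcripts, the first gene by Pearson r was Serpinb9b for Tigit (0.916, with Spp1 next at 0.909), Kcnj8 for Cd226 (0.849), Fuca1 for Cd96 (with Ube2g2 next at 0.827) and Stk19 for Crtam (0.794). None of the 3 Crtam genes named above was among its first 3 there. These correlations share the scaling and the group structure of the libraries and are given with no p.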

How the data were processed

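Polyadenylated RNA of sorted NK cells was sequenced in single reads. According to the submitters' processing notes and the study's methods, the authors trimmed reads with cutadapt 1.10, removed ribosomal reads with Bowtie2 2.2.8, aligned the rest to mm10 with STAR 2.5.3a and counted them per Ensembl gene with HTSeq 0.6.1p1 in union mode. Of 112 columns that the authors deposited, 24 were used, which hold whole-number counts per gene without normalization. Not used were 48 further columns with values for libraries, and 29 columns that hold fold changes and p-values from comparisons by the authors.

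Groups were taken from the sample labels. The software was edgeR 4.0.16, DESeq2 1.42.0 and limma 3.58.1 under R 4.3.3. Counts of all 24 libraries were filtered with filterByExpr on the 7 groups, scaled with TMM and fitted with 1 mean per group and robust dispersions. Standard errors are the size of a log2 fold change over the square root of its F, and their 95% intervals from the t distribution. The balance was tested by 2-sided exact permutation, with p as double the smaller tail. Of these tests, only the edgeR test of RMA-KR late against control was tried on simulated counts. Total counts of 5138651 to 14863500 put 3 counts at 0.208 to 0.554 normalized CPM. Read share intervals cover counting error only. Within groups, chi-square per degree of freedom was 15.9 to 91.4 over 31 pairs of libraries, far above counting error. The study gives 3 mice per group for its late and control groups, while 4 control libraries are used here, and the labels do not say whether each library is 1 mouse. The p-values measure the spread between these libraries, which may in part be technical.

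The genes named are the 4 receptors, list genes that were called or needed for a count, and for each receptor the 3 genes with the highest r. Other list genes were named after their values were seen, and 1 marker is not reported here. Lists hold ligands, the related receptor Pvrig, signalling partners, cell cycle and immediate early genes, and markers of 8 cell types. Receptors and lists were chosen with earlier results of these data known. Alternatives were DESeq2's size factors, DESeq2 with default settings and with betaPrior=TRUE, no filter, a minimum of 10 counts per library, a replicate block by the labels' numbers, only the groups compared, each library left out, a pseudocount of 5, the share in percent, the median, and Spearman's rho. Leaving out the 4 libraries low in immediate early genes, for the likeness of genes too, a term for them, and permutation p-values from absolute differences were chosen after seeing the data.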

Additional observations from a re-analysis of the deposited data

How the results depend on the processing

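Over 69 results, 1139 of 1188 alternative values stayed on their side of the threshold, 24 lost a call, 25 gained one and 0 reversed a called direction; some values that were never called changed sign. Adjusted p-values follow, and where a call changed the cause was not tested. Tigit in RMA-KR intermediate against RMA intermediate (0.0851) was called with no filter (2.23e-06), at least 10 counts (0.0462), only the groups compared (0.00602), DESeq2 (0.0333) and betaPrior=TRUE (0.0334). Tigit in RMA intermediate against RMA early (0.0341) was not called with the replicate block (0.0600), without the 4 libraries low in immediate early genes (0.0542) or with only the groups compared (0.102), and ran from 0.0293 to 0.176 with 1 library left out. Cd226 in RMA-KR late was not called against control with the term for those libraries (0.0666), without them (0.131) or with only the groups compared (0.140), nor against RMA-KR intermediate (0.262, 0.295 and 0.249); leaving out 1 library gave 0.00885 to 0.221 and 0.00701 to 0.255. Crtam in RMA-KR intermediate was called with no filter against control (0.0161), RMA intermediate (0.000162) and RMA-KR early (0.000584), and against the last 2 with DESeq2 (0.0221 and 0.0276) and betaPrior=TRUE (0.0190 and 0.0260); against RMA-KR early, leaving out 1 library gave 0.0417 to 0.397. Over the 7 groups, Cd226 and Crtam were called with no filter (0.000596 and 5.38e-07), at least 10 counts (0.0280 and 0.0382) and DESeq2 (0.00758 and 0.0138), and Cd226 with the replicate block (0.0436); leaving out 1 library gave 0.0148 to 0.236 for Cd226, 0.0293 to 0.276 for Cd96 and 0.0256 to 0.261 for Crtam. For the balance, leaving out 1 library gave 0.0242 to 0.374 for the whole RMA course and 0.0440 to 0.374 for RMA-KR.

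Same-numbered libraries of different groups did not vary together (mean r −0.00442, from −0.118 to 0.202, over 64 pairs, against 0.00165 over 181 other pairs). No pairing was thus seen over all genes, but these values cannot exclude a shared day or experiment behind the numbers. The replicate block moved the genes called in RMA-KR late against control from 168 to 100. Counts of called genes depended on the setting: 84 to 483 for RMA-KR late, 210 to 624 (306) for RMA late and 211 to 762 (282) for RMA intermediate against control, 65 to 1030 (295) for RMA intermediate against RMA early, 10 to 280 (51) for RMA-KR late against RMA-KR intermediate, 42 to 340 (86) for RMA-KR against RMA at the intermediate stage and 550 to 4590 (973) over the 7 groups. RMA-KR against RMA at the early stage gave 0 to 338 (52), RMA-KR intermediate against RMA-KR early 0 to 488 (79), RMA-KR early 0 to 147 (14) and RMA-KR intermediate 0 to 56 (3) against control. The comparisons at 0 reached 88 in RMA early, 56 for the late models, 35 for RMA late against RMA intermediate and 154 for the difference of changes. Leaving out 1 library gave 166 to 226 for RMA intermediate, for RMA late 127 when its library 2 was left out to 457 when its library 3 was and 71 (without Control 2) to 152 for RMA-KR late against control, 49 (without RMA early 1) to 568 (without RMA early 3) for RMA intermediate against RMA early, 19 (without RMA-KR intermediate 4) to 66 for RMA-KR late against RMA-KR intermediate, 34 (without RMA-KR intermediate 4) to 70 for the models at the intermediate stage and 8 (without RMA-KR early 2) to 192 (without RMA early 3) at the early stage, 8 (without RMA-KR early 2) to 221 (without RMA-KR intermediate 2) for RMA-KR intermediate against RMA-KR early, 0 to 11 for RMA-KR early and 0 to 4 for RMA-KR intermediate against control, and up to 86 for RMA early and 57 for the difference of changes (both without RMA early 3). The test over the 7 groups could not be run with betaPrior=TRUE, nor the comparison of the models within stages under the block. All 4 receptors had at least 148 counts in every library, so depth was not the limit of these values; ligands near 0 were below what this depth resolves.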
